A study of Mus musculus with 6 samples.

Results

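Rab GTPases are the small GTPases of membrane traffic, and the genes described here are all those of the mouse gene tables whose symbol is Rab followed by a number and at most 1 letter. The rule found 57 genes among the 39174 of the tables. A Rab protein is carried to a membrane by an escort protein that lets it be prenylated, is switched on there when an exchange factor replaces its GDP with GTP, binds effectors while it holds GTP, and is switched off by a GTPase-activating protein, after which a GDP dissociation inhibitor lifts it off again. Each Rab marks particular membranes, such as Rab5 proteins on early endosomes, Rab7 on late endosomes and Rab3 proteins on synaptic vesicles. Plekhg5 is an exchange factor of Rab26, a vesicle Rab tied to autophagy of synaptic vesicles. In peripheral nerve, Rab7 is known from an axonal form of Charcot-Marie-Tooth disease, and several regulators of other Rab proteins from demyelinating forms.

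RNA came from sciatic nerves of wild-type mice (3 libraries, numbered 2, 4 and 5) and of Plekhg5-deficient mice (3 libraries, numbered 2, 3 and 5), which the study names Plekhg5-/- and for which it mentions no cell-type driver. The study's text gives the age of the mice as 12 months, and the sample records call them adult. Libraries of poly(A) RNA were sequenced on a NextSeq instrument, and expression is given as FPKM, which sets a gene's fragments against its transcript length and its library's total, scaled here between libraries by a median of ratios. The labels name no treatment. The study states that 3 animals were used per genotype, which is the number of libraries.

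Plekhg5 itself, on chromosome 4 of GRCm38 from 152072498 to 152115400, stood at 3.65, 4.13 and 5.26 FPKM in wild-type libraries 2, 4 and 5. In Plekhg5-deficient nerves 2, 3 and 5 it was measured at 0.141, 0.140 and 0.0521 FPKM, a log2 fold change of -2.26 (SE 0.18, limma, adjusted p = 0.0380). On leaving out any 1 library the groups stayed apart, but the adjusted p rose to between 0.0763 and 0.268. Each of the 7 Schwann cell markers was detected. The libraries differed in what they held beside nerve glia. Summed over 6 markers, neuronal transcripts were lowest in the libraries numbered 5 (44.1 FPKM in wild-type 5 and 22.9 in Plekhg5-deficient 5) and reached 253 to 897 FPKM in the other 4. Erythroid markers summed to 141232 FPKM in Plekhg5-deficient nerve 5 and to 2344 to 13987 elsewhere, and skeletal muscle markers ranged from 142 FPKM in Plekhg5-deficient nerve 3 to 27303 in Plekhg5-deficient nerve 5. T- and B-cell markers summed to 174 FPKM in wild-type nerve 5 and to 3.22 to 8.03 elsewhere. Since these are whole nerves, fewer cells of a type and less RNA per cell cannot be told apart.

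Rab3b, the Rab gene that differed most between the genotypes, lies on the forward strand of chromosome 4 from 108879063 to 108943324. The stretch just before its annotated start is shown because it is the promoter of the single Rab gene that passed a test, unadjusted, between genotypes. It covers chr4:108878820-108879062 (GRCm38.p6, forward strand, 243 bases, from RefSeq), and capitals mark the GC box, GGGCGG on either strand:
Rab3b: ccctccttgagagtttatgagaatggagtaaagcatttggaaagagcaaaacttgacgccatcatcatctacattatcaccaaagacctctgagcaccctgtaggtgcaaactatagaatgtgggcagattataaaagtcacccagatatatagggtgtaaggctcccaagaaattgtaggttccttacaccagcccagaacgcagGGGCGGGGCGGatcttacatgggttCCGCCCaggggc
A pair of GC boxes that share a base begin 37 and 32 bases before the start of the gene, and 1 on the other strand begins 12 bases before it. The letters TATAAA occur once, 113 bases before the start. The stretch has a GC content of 48.1%. RefSeq promoter windows of 300 bases were found for 47 of the 57 Rab genes, 59 windows in all. A GC box on either strand stood in 41 of the 59 (69.5%), against 35.7% of the 32851 windows of all genes. TATAAA on either strand stood in 4 of the 59 (6.78%), against 13.6% of all windows. These matches describe the letters and are not evidence of binding.

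The Rab family was broadly present in the nerve. Of the 57 genes, 51 had a mean of at least 1 FPKM over the 6 libraries, 31 of at least 10 and 11 of at least 50. Rab7 was the highest at 151 FPKM, followed by Rab11a at 130.3 and Rab2a at 86.0. The 6 genes below 1 FPKM were Rab19, Rab26, Rab44, Rab25, Rab42 and Rab17, and Rab17, a Rab of polarised epithelia, at 0.0424 FPKM was the single member left out of the fit. Of the 56 members tested, 2 passed the minimum of 0.1 FPKM in 1 genotype alone, Rab42 in wild-type and Rab25 in Plekhg5-deficient nerves. Their levels by library are shown in the plot of all Rab genes.

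**Figure D1:**
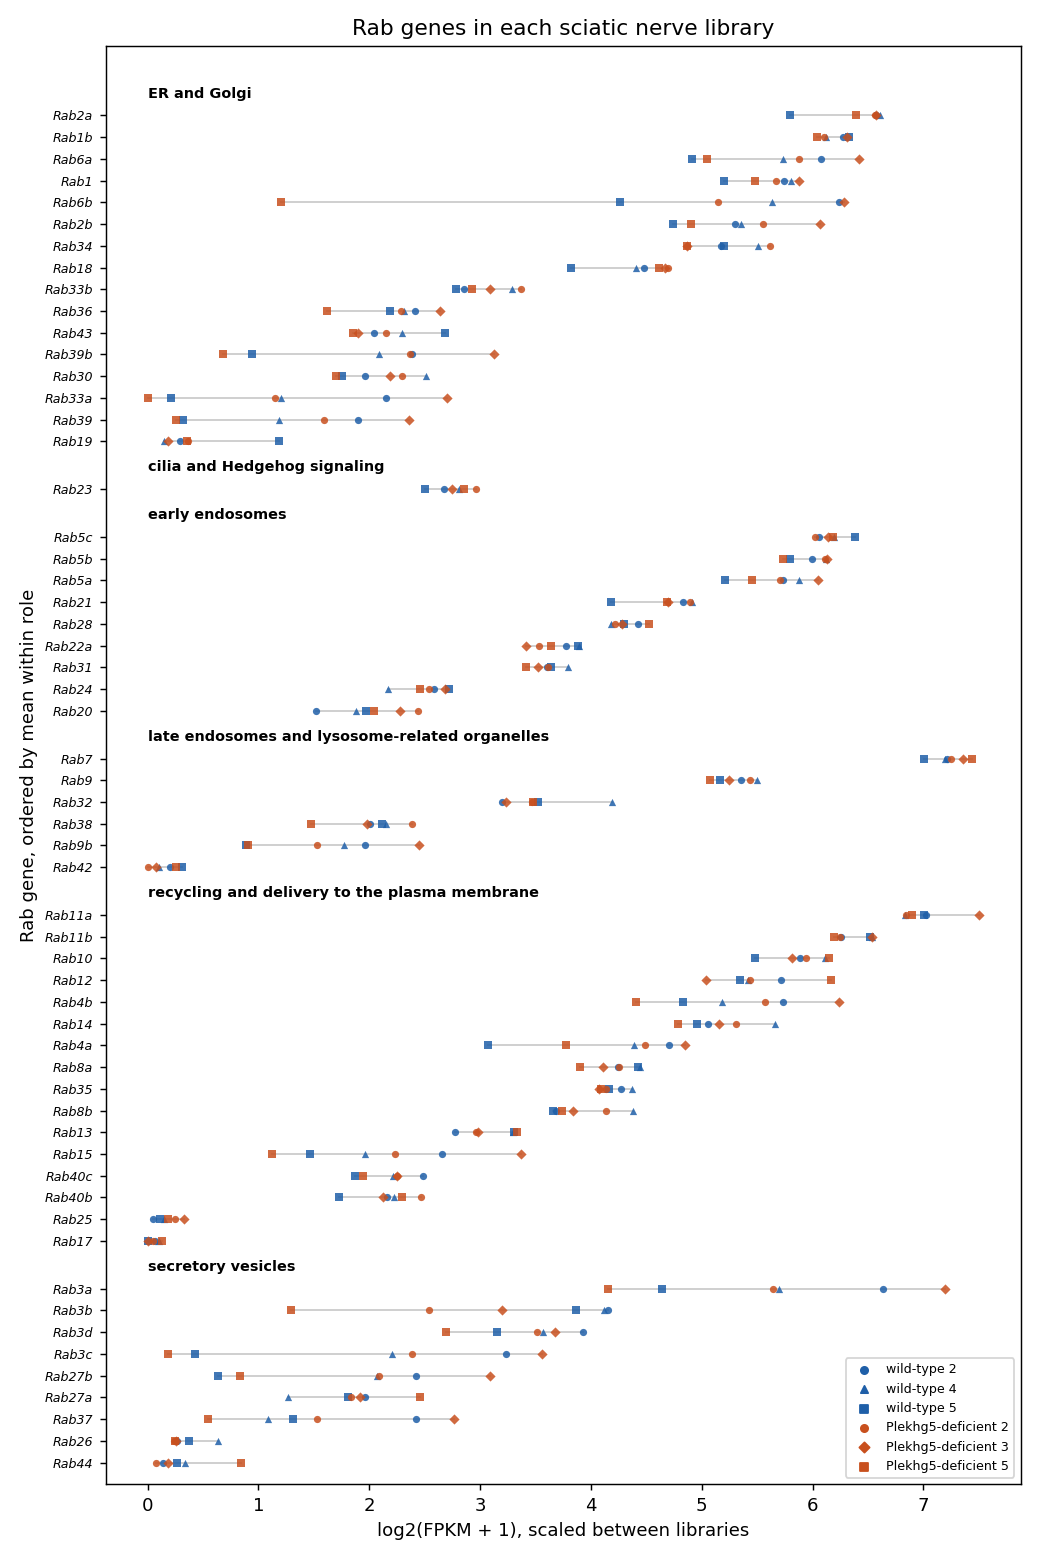
Level of each of the 57 Rab genes in each library, on a log2 axis of FPKM + 1, with genes grouped by role and ordered by mean. Blue is wild-type, orange is Plekhg5-deficient, the symbol gives the library number and grey lines span the 6 libraries. Most genes sit in a narrow band, while Rab3a, Rab3c, Rab6b, Rab33a and Rab39 spread widely within both genotypes.

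Between genotypes, no Rab gene passed an adjusted p of 0.05 (0 of 56 tested, limma), against 0.0376% of all 21285 genes tested. At an unadjusted p under 0.05, 1 of 56 (1.79%) passed, against 5.11% of all genes, and that gene was Rab3b. It was lower in Plekhg5-deficient nerves, a direction in which 2.69% of all genes passed, and 0 members passed in the other, against 2.41%. The values of 4 members were lower in every Plekhg5-deficient library than in every wild-type library (7.14% of 56, against 5.88% of all genes), and those of 4 others were higher in every one (7.14%, against 5.69%), or 3 without Rab25, which passed the minimum through the Plekhg5-deficient nerves alone. Together, with Rab25 included, these are 14.3% of the members, against 11.6% of all genes. Overlap was judged on scaled FPKM. The scaling factor, by which FPKM are divided, was 0.745 in Plekhg5-deficient nerve 5 and 0.991 to 1.12 in the other libraries. On FPKM as deposited, the 4 higher members and Rab35 overlap between genotypes. There the log2 fold changes of Rab7, Rab18 and Rab20 were 0.04, 0.26 and 0.35, and those of Rab3b, Rab22a, Rab35 and Rab26 -1.81, -0.48, -0.33 and -0.22. In the main fit on scaled FPKM, the log2 fold changes were above 0 for 32 members and below 0 for 24. Their median was 0.05 on the log2 scale, and 0.01 over all genes tested. Summed over the 57 genes, Rab transcripts reached 1594, 1538 and 1218 FPKM in the wild-type libraries and 1473, 1803 and 1268 FPKM in the Plekhg5-deficient ones, lowest in the libraries numbered 5 of both genotypes. With 3 libraries against 3, an exact permutation test of a single gene cannot give a p below 0.1.

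Rab26, the Rab that Plekhg5 switches on, was among the lowest Rab genes of this tissue. The gene lies on the reverse strand of chromosome 17 from 24527241 to 24534210. Its level was 0.205, 0.553 and 0.295 FPKM in wild-type libraries 2, 4 and 5, and 0.179, 0.192 and 0.185 FPKM in Plekhg5-deficient nerves 2, 3 and 5. All 3 Plekhg5-deficient values were below the lowest wild-type value, but by a margin of 0.192 against 0.205 FPKM. With a mean of 0.268 FPKM, Rab26 ranked 53 of the 57 Rab genes. The log2 fold change was -0.18 (SE 0.13, unadjusted p = 0.197, limma adjusted p = 0.974), so a difference was not detectable here. The intervals that Cufflinks gave for each library overlapped in all 6, and their lower end was 0 in every library except wild-type 4, where the interval ran from 0.151 to 0.956 FPKM. Without wild-type nerve 4 the log2 fold change was -0.07. The gene overlaps Traf7 on the same strand, measured at 15.9, 20.5 and 21.4 FPKM in the wild-type libraries, against 14.6, 15.3 and 15.7 FPKM in the Plekhg5-deficient ones, and antisense transcripts on the other strand, so the reads of Rab26 are uncertain at this level. Traf7 was also lower in all 3 Plekhg5-deficient nerves, and its part in the Rab26 values was not tested. Rab37, a close relative of Rab26 in secretory granules, was higher at 2.52 FPKM.

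Rab3b, one of 4 Rab3 proteins of regulated exocytosis, was measured at 16.8, 16.3 and 13.6 FPKM in wild-type libraries 2, 4 and 5. In Plekhg5-deficient nerves 2, 3 and 5 it was measured at 4.80, 8.16 and 1.45 FPKM. The groups did not overlap, and neither did the intervals that Cufflinks reported, of which the lowest wild-type end was 11.4 FPKM and the highest Plekhg5-deficient end 9.39 FPKM. Wild-type nerves averaged 15.6 ± 1.71 FPKM (SD, n = 3 libraries) and Plekhg5-deficient nerves 4.80 ± 3.36 FPKM (SD, n = 3), a 3.24-fold difference. The log2 fold change was -1.70 (SE 0.46, unadjusted p = 0.00877), and after adjustment over all genes it did not pass (limma adjusted p = 0.739). Plekhg5-deficient nerve 5 held the lowest value, and without it the log2 fold change was -1.19 (SE 0.26, unadjusted p = 0.00352, limma adjusted p = 0.525). Without both libraries numbered 5 it was -1.29 (SE 0.27, unadjusted p = 0.0043, limma adjusted p = 0.537). With the neuron marker score as a covariate it was -1.64 (SE 0.24, unadjusted p = 0.000359, limma adjusted p = 0.166). This fit and the one without both libraries numbered 5 were chosen after seeing the data. In them 8.63% and 6.22% of all genes had an unadjusted p under 0.05. On leaving out any 1 library, the unadjusted limma p of Rab3b ran from 0.00181 to 0.0301. An antisense gene that overlaps the end of Rab3b was listed at 0 or at values next to 0 in all 6 libraries.

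Adipocyte markers, picked out of the marker lists after their values were seen, were mixed. Of the 4 in the list, Lep and Plin1 were lower in every Plekhg5-deficient library, while Adipoq and Cidec overlapped between genotypes. Of all genes tested, 5.88% were lower in every Plekhg5-deficient library. In the other marker lists, 1 T- and B-cell marker was lower and 1 Schwann cell marker higher in every Plekhg5-deficient library. Lep, the gene of leptin, was measured at 7.44, 33.3 and 14.9 FPKM in the wild-type libraries, against 5.86, 6.55 and 0.273 FPKM in the Plekhg5-deficient ones. The summed list ranged from 492 to 696 FPKM in wild-type nerves and from 194 to 769 FPKM in Plekhg5-deficient ones, highest in Plekhg5-deficient nerve 5 where Rab3b was lowest. The part of adipocyte transcripts in the Rab3b difference was not tested.

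The other Rab3 genes each overlapped between genotypes. Rab3a, the main Rab of synaptic vesicles, was measured at 98.5, 51.0 and 23.9 FPKM in the wild-type libraries, against 49.1, 145 and 16.8 FPKM in the Plekhg5-deficient ones, with a log2 fold change of 0.01 (SE 0.83), or -0.76 without Plekhg5-deficient nerve 3 and -0.51 without wild-type nerve 5. Rab3c, a neuronal Rab3, was measured at 8.44, 3.60 and 0.343 FPKM and at 4.23, 10.8 and 0.137 FPKM, with a log2 fold change of 0.09 (SE 1.01), or -0.68 without wild-type nerve 5, -0.67 without Plekhg5-deficient nerve 3 and -0.08 without Plekhg5-deficient nerve 2. Both followed the library, with the highest value in Plekhg5-deficient nerve 3 and the lowest in the libraries numbered 5. Rab3d, found on secretory granules of many cell types, was measured at 14.2, 10.9 and 7.89 FPKM in the wild-type libraries, against 10.4, 11.8 and 5.46 FPKM in the Plekhg5-deficient ones. Whether the change of Rab3b differs from those of the other Rab3 genes was not tested. The regulators of the Rab3 cycle, named here after their values were seen, overlapped between genotypes. Rab3gap1, the catalytic part of the Rab3 GTPase-activating protein, was measured at 5.08 to 5.65 FPKM in the wild-type libraries, against 5.21 to 5.97 FPKM in the Plekhg5-deficient ones. Madd, an exchange factor of Rab3 proteins, was measured at 2.58 to 3.44 and at 1.71 to 3.49 FPKM. Rph3a, the Rab3 effector rabphilin, ranged from 8.52 to 26.9 FPKM in wild-type and from 3.95 to 39.1 FPKM in the Plekhg5-deficient ones.

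**Figure D2:**
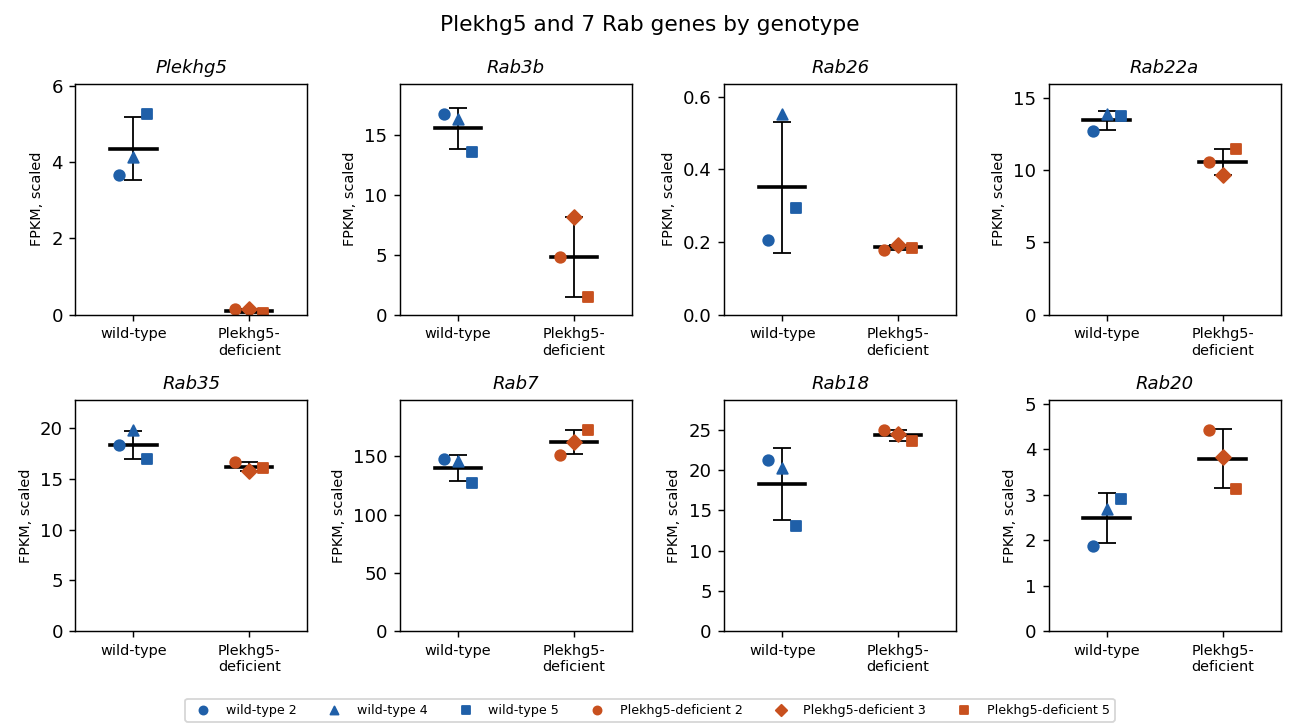
Scaled FPKM of Plekhg5 and of Rab26 and the 6 other Rab genes without overlap between genotypes at a mean of at least 1 FPKM, with points for libraries, bars for means and whiskers for the SD (n = 3 libraries each). Rab3b, Rab26, Rab22a and Rab35 lie lower and Rab7, Rab18 and Rab20 higher in every Plekhg5-deficient library, with the margin of Rab26 from 0.192 to 0.205 FPKM. On FPKM as deposited, Rab35, Rab7, Rab18 and Rab20 overlap between genotypes.

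Among the 9 Rab genes of early endosomes, none had an unadjusted limma p under 0.05, against 5.11% of all genes tested. Passing has this meaning in the role groups below as well, with the same share of all genes. The log2 fold changes of the 9 ran from -0.32 to 0.46 with a median of 0.04, beside 0.01 over all genes tested. The highest were the Rab5 genes, which drive fusion of early endosomes: Rab5c at 70.9, Rab5b at 62.6 and Rab5a at 50.9 FPKM, all overlapping between genotypes. Rab22a, of endosome sorting, was measured at 12.7, 13.9 and 13.8 FPKM in the wild-type libraries, against 10.6, 9.63 and 11.5 FPKM in the Plekhg5-deficient ones. Every Plekhg5-deficient value was lower, with a log2 fold change of -0.32 (SE 0.16, unadjusted p = 0.0803). Rab20, a Rab of phagosomes and endosomes, was measured at 1.87, 2.68 and 2.91 FPKM in the wild-type libraries, against 4.41, 3.84 and 3.12 FPKM in the Plekhg5-deficient ones. Every Plekhg5-deficient value was higher, with a log2 fold change of 0.46 (SE 0.21, unadjusted p = 0.0699), or 0.35 on FPKM as deposited. For Rab22a and Rab20 alike, the limma adjusted p on scaled FPKM was 0.974.

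On late endosomes and lysosome-related organelles, 0 of 6 members passed the test, and the median log2 fold change was -0.09. Rab7, which carries late endosomes and autophagosomes to fusion with lysosomes, was measured at 147, 146 and 128 FPKM in the wild-type libraries, against 151, 163 and 172 FPKM in the Plekhg5-deficient ones. All 3 Plekhg5-deficient values were higher, but the means (140.2 ± 11.01 and 162 ± 10.4, SD, n = 3 each) gave a log2 fold change of 0.21 (SE 0.17, unadjusted p = 0.257, limma adjusted p = 0.974), and of 0.13 without wild-type nerve 5, the lowest. On FPKM as deposited the log2 fold change of Rab7 was 0.04. Rab9, which returns receptors from late endosomes to the Golgi, had a mean of 38.5 FPKM, and Rab32, a Rab of melanosomes and mitochondria, of 10.8 FPKM, and both overlapped. Rab29, another Rab of the lysosome, is listed under its older symbol Rab7l1, which the rule does not take.

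In the ER and Golgi group, 0 of 16 members passed, with a median log2 fold change of 0.09. Rab2a, Rab1b and Rab6a, which act between the ER and the Golgi and within the Golgi, were highest at 86.0, 72.6 and 53.7 FPKM, and overlapped between genotypes. Rab18, a Rab of the ER and of lipid droplets, was measured at 21.3, 20.3 and 13.1 FPKM in the wild-type libraries, against 24.9, 24.4 and 23.5 FPKM in the Plekhg5-deficient ones. It was higher in all 3, with a log2 fold change of 0.42 (SE 0.22, unadjusted p = 0.0915), and without wild-type nerve 5, the lowest, of 0.21. On FPKM as deposited the log2 fold change of Rab18 was 0.26. Rab23, the single Rab of cilia in the groups, had a mean of 5.82 FPKM and overlapped.

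Among the Rab genes of recycling and delivery to the plasma membrane, 0 of 15 tested passed, with a median log2 fold change of 0.06. Rab11a (130.3 FPKM) and Rab10 (59.3 FPKM), of recycling endosomes and of delivery to the surface, overlapped between genotypes. Rab11b, at 82.9 FPKM, overlapped as well, and it shares sequence with a pseudogene, Rab11b-ps2, listed at 51.8 to 80.1 FPKM, so its level is uncertain. Rab35, of fast endosome recycling, was measured at 18.3, 19.7 and 17.0 FPKM in the wild-type libraries, against 16.6, 15.8 and 16.04 FPKM in the Plekhg5-deficient ones. Its values were lower in all 3, with a log2 fold change of -0.17 (SE 0.15, unadjusted p = 0.294). Rab25, an epithelial Rab11 relative, averaged 0.192 FPKM in Plekhg5-deficient and 0.0760 FPKM in wild-type nerves, and its lack of overlap is not counted as support, since it entered the fit through the higher group alone.

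Several Rab genes varied widely among libraries of the same genotype. Of the 51 members with a mean of at least 1 FPKM, 27 stayed within 2-fold over all 6 libraries. Their median range was 1.89-fold, near the 1.96-fold of all genes at that level. Of the same 51, 11 (21.6%) spanned at least 4-fold, against 16.4% of all genes at that level. In 24 of 56 members (42.9%) both libraries numbered 5 lay below the other 4, against 17.0% of all genes. In 11 of 56 (19.6%) they did so by at least 1.5-fold, against 6.17%. These 11 were Rab3a, Rab3c, Rab4a, Rab6a, Rab6b, Rab9b, Rab15, Rab27b, Rab33a, Rab39 and Rab39b, a pattern noticed after the values were seen and given as a description. All 6 neuron markers of the list also had both libraries numbered 5 below the other 4. So had 2 of 7 Schwann cell markers and the 1 epithelial marker tested, but no marker tested in the other lists. Among the Rab regulators described below, it held for 14 of 35 GTPase-activating proteins and 17 of 55 effectors tested. It also held for 9 of 46 exchange factors and 2 of 8 delivery and prenylation genes. The pattern is thus not particular to the Rab genes. The part of axonal or neuronal RNA in the Rab values was not tested.

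Rab6b, the neuronal form of Rab6, was measured at 74.5, 48.8 and 18.2 FPKM in the wild-type libraries, against 34.5, 77.0 and 1.31 FPKM in the Plekhg5-deficient ones, a 59.0-fold range. Rab6a, the form found in most cell types, ranged 2.90-fold over the same libraries. In Plekhg5-deficient nerve 5 the ratio of Rab6b to Rab6a was 0.0406, and in the other libraries it was 0.598 to 1.12. The log2 fold change of Rab6b between genotypes was -1.17 (SE 1.29, unadjusted p = 0.396), and 0.33 without Plekhg5-deficient nerve 5. With the neuron marker score as a covariate it was -0.98 (SE 0.35, unadjusted p = 0.029, limma adjusted p = 0.525), where 8.63% of all genes had an unadjusted p under 0.05. Rab27b, which acts in secretion, was measured at 4.35, 3.20 and 0.554 FPKM in the wild-type libraries, against 3.25, 7.54 and 0.787 FPKM in the Plekhg5-deficient ones. It ranged 13.6-fold, and Rab27a, of melanosome transport and granule release, 3.20-fold, with its highest value of 4.49 FPKM in Plekhg5-deficient nerve 5.

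Rab39b, a neuronal Rab whose loss is known from intellectual disability, was measured at 4.21, 3.25 and 0.924 FPKM in the wild-type libraries, against 4.15, 7.73 and 0.601 FPKM in the Plekhg5-deficient ones. Its relative Rab39 had the same libraries lowest, at 0.245 and 0.196 FPKM, and ranged 21.1-fold. Rab15, a Rab of endocytic recycling, was measured at 5.31, 2.90 and 1.76 FPKM, against 3.70, 9.31 and 1.17 FPKM, a 7.93-fold range. In each of these genes the libraries numbered 5 lay at the bottom of their own genotype. The fitted log2 fold changes of Rab39b, Rab39 and Rab15 were 0.25, 0.27 and 0.21, with SEs of 0.68, 0.61 and 0.59, and all 3 fell below 0 without wild-type nerve 5 or without Plekhg5-deficient nerve 3. Rab9b ranged 5.28-fold and Rab9 1.35-fold. A pseudogene of Rab9b, Rab9b-ps1, was listed at 3.61 to 4.93 FPKM, above the Rab9b mean of 2.23 FPKM, so the level of Rab9b is uncertain. Rab33a, listed at 0 in Plekhg5-deficient nerve 5, reached 5.50 FPKM in Plekhg5-deficient nerve 3, while Rab33b, a Golgi Rab that binds the autophagy protein Atg16l1, ranged 1.58-fold. Rab37 spanned 12.6-fold, with the lowest value of 0.461 FPKM in Plekhg5-deficient nerve 5 and the highest of 5.80 FPKM in Plekhg5-deficient nerve 3. Its value in wild-type nerve 4 (1.13 FPKM) lay below that in wild-type nerve 5 (1.48 FPKM). Apart from these 2 libraries, its values had the order of the summed neuron markers. No Rab gene with a mean of at least 1 FPKM had 1 library at least 2-fold above every other (0 of 51, against 5.24% of all genes at that level). In 5 members 1 library was at least 2-fold below every other, in each case Plekhg5-deficient nerve 5: Rab3b, Rab3c, Rab6b, Rab33a and Rab37. The share of all genes with 1 library so far below was not computed, so this count is not read as a trait of the Rab genes.

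**Figure D3:**
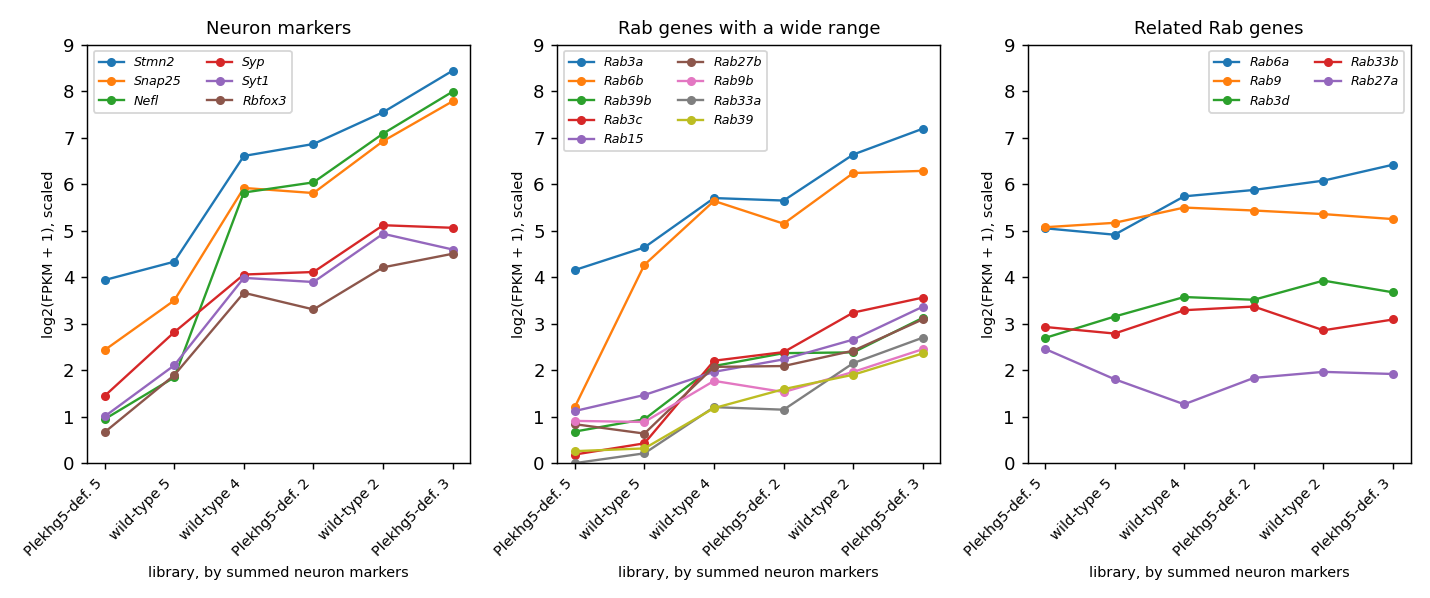
Levels on a log2 axis of FPKM + 1 of 6 neuron markers, of the 9 Rab genes that spanned at least 4-fold with both libraries numbered 5 lowest, and of 5 related Rab genes, with libraries ordered by their summed neuron markers. In the first and second panels the libraries numbered 5 are lowest and Plekhg5-deficient nerve 3 or wild-type nerve 2 is highest. The related genes drawn stay flatter, with ranges from 1.35-fold for Rab9 to 3.20-fold for Rab27a. Of these, Rab6a, Rab9 and Rab3d also have both libraries numbered 5 lowest. The pair Rab4a and Rab4b, with ranges of 3.77-fold and 3.70-fold, is not drawn.

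The proteins that load, switch and read Rab proteins were examined as 4 lists with 147 genes in the tables, of which 144 were tested. None passed an adjusted p of 0.05 (lowest limma adjusted p = 0.702), and 3 had an unadjusted p under 0.05, all lower in Plekhg5-deficient nerves (2.08%, against 2.69% of all genes in that direction). In 7 genes every Plekhg5-deficient value was below every wild-type value (4.86%, against 5.88% of all genes), and in 2 above (1.39%, against 5.69%). The median log2 fold changes were 0.20 for delivery and prenylation, -0.05 for exchange factors, -0.10 for GTPase-activating proteins and -0.01 for effectors. Of the 8 delivery and prenylation genes, 1 passed unadjusted. The share of all genes, for this and the list counts that follow, was 5.11%. Chml, a Rab escort protein gene, was measured at 1.67, 2.40 and 2.05 FPKM in the wild-type libraries, against 1.12, 0.742 and 0.779 FPKM in the Plekhg5-deficient ones. Its log2 fold change was -0.69 (SE 0.18, unadjusted p = 0.00681, limma adjusted p = 0.702). Rabac1, a Rab acceptor (153 FPKM), was the highest of that list and overlapped.

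Of the 35 GTPase-activating proteins, 1 passed unadjusted. Tbc1d4, which restrains the Rab proteins that deliver the glucose transporter Glut4, was measured at 3.85, 2.45 and 7.27 FPKM in the wild-type libraries, against 1.73, 0.977 and 2.22 FPKM in the Plekhg5-deficient ones (log2 fold change -0.996, SE 0.37, unadjusted p = 0.0311). The groups did not overlap, with wild-type nerve 5 highest, and the unadjusted p was 0.0719 without that library (log2 fold change -0.66). It also missed 0.05 without wild-type nerve 2, Plekhg5-deficient nerve 2 or Plekhg5-deficient nerve 3 (unadjusted p = 0.0623, 0.0637 and 0.0964). Among the effectors, 1 of 55 tested passed unadjusted. Myo5b, a myosin motor that Rab11 and Rab8 proteins recruit, was measured at 1.52, 1.65 and 2.09 FPKM in the wild-type libraries, against 0.730, 1.16 and 0.814 FPKM in the Plekhg5-deficient ones (log2 fold change -0.53, SE 0.18, unadjusted p = 0.0199). Its groups did not overlap either, and the unadjusted p was 0.0743 without Plekhg5-deficient nerve 2. The highest genes of both lists, Tbc1d9b (32.9 FPKM), Evi5 (17.2 FPKM), Osbpl1a (42.0 FPKM) and Mical1 (25.1 FPKM), overlapped. None of the 46 exchange factors passed, and the highest, Dennd5a (119 FPKM) and Trappc1 (96.2 FPKM), overlapped. Sbf1, Sbf2 and Sh3tc2, genes of demyelinating Charcot-Marie-Tooth disease named here after their values were seen, overlapped too, at means of 23.7, 28.1 and 3.06 FPKM.

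**Figure D4:**
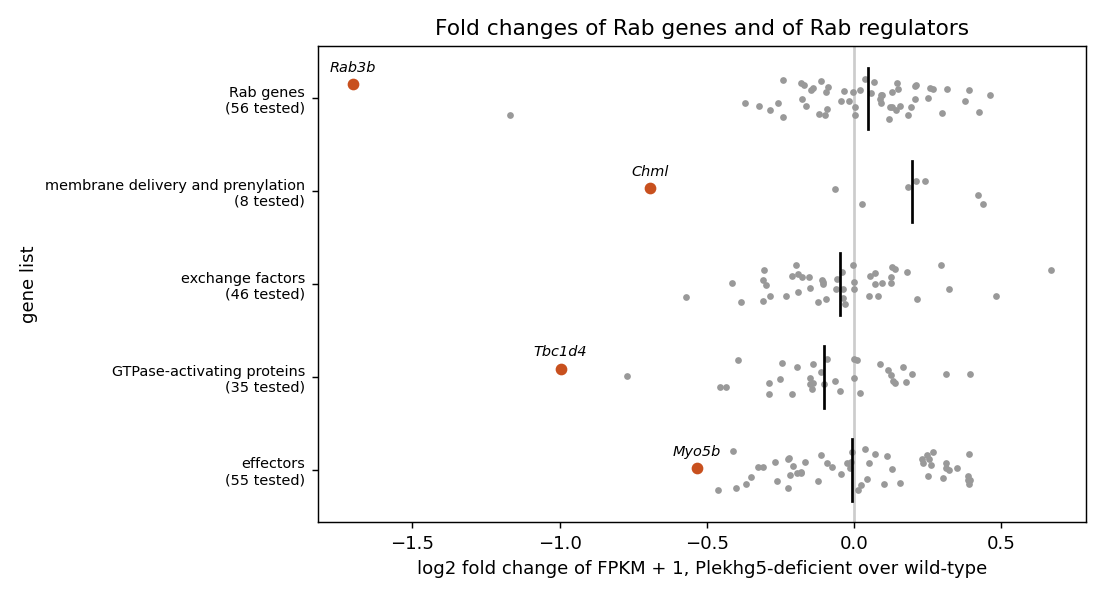
Log2 fold changes between genotypes of the Rab genes and of 4 lists of Rab regulators, with black lines for medians and orange points for genes with an unadjusted p under 0.05. Rab3b (-1.70), Chml (-0.69), Tbc1d4 (-0.996) and Myo5b (-0.53) are the genes so marked, and the medians lie near 0.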

How the data were processed

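FPKM tables of 6 sciatic nerve libraries, 1 per library, were deposited by the authors, who trimmed reads with Trim Galore 0.4.0, mapped them to GRCm38 with STAR and estimated FPKM with Cufflinks 2.2.1, per the labels and the study's methods. No read counts come with them. With the annotation release, strand setting and depth not given in the sources used here, precision rests on the spread between libraries and on the intervals of Cufflinks. All 57 Rab identifiers were found in GENCODE release M21, 36 with the same coordinates, and 21 overlap a gene on the opposite strand.

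Genes averaging 0.1 FPKM or more in at least 1 genotype were fitted on log2(FPKM + 1), after median-of-ratios scaling, with limma 3.58.1 in R 4.3.3, one term for genotype, a trended variance and p-values adjusted by Benjamini-Hochberg over 21285 genes. Fold changes are on this scale, which understates those of low genes. The fit was tested on simulated data. Overlap between genotypes was judged on scaled FPKM. Groups follow the sample labels.

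The Rab genes, role groups and regulator lists were chosen with earlier results of these data known. Genes named were Plekhg5, Rab26, Rab genes with a p under 0.05 or with no overlap at a mean of at least 1 FPKM, the 3 highest of each role, those with 1 library at least 2-fold from every other, and regulators at p under 0.05 or the 2 highest of a list. Of the genes that this rule names, 1 is not reported here. Related pairs, wide-range Rab genes, Rab25, Rab11b-ps2, Rab9b-ps1, Rab7l1, Traf7, adipocyte markers, the Rab3 regulators and disease genes were added after their values were seen. Alternatives changed the pseudocount, minimum, scaling, variance model, weights, pairing and libraries. No protein sequences were used here. Figures were drawn with matplotlib 3.10.9.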

Additional observations from a re-analysis of the deposited data

How the results depend on the processing

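No Rab gene passed an adjusted p of 0.05 under any of 18 alternatives. The fold changes of Plekhg5, Rab26, Rab3b, Rab7, Rab18, Rab20, Rab22a, Rab35, Chml, Myo5b and Tbc1d4 kept their direction in every alternative run. Since none of these genes overlapped between genotypes on scaled FPKM, leaving out 1 library could hardly turn them. Changing the minimum or the variance model leaves a fold change as it is. Their kept direction is therefore no test of them. Over all members tested, 35 of 56 (62.5%) turned direction in at least 1 alternative, against 54.0% of all genes. Those of 7 widely ranging Rab genes did so, in the log2 fold changes that follow. On leaving out 1 library, Rab3a ran from -0.76 to 0.76, Rab3c from -0.68 to 1.03, Rab6b from -2.20 to 0.33 (above 0 only without Plekhg5-deficient nerve 5), Rab15 from -0.35 to 0.77, Rab37 from -0.57 to 0.55, Rab39 from -0.21 to 0.86 and Rab39b from -0.28 to 0.95. A pseudocount of 0.1 gave -0.0011 for Rab3a, -0.11 for Rab3c and -0.13 for Rab37, and one of 0.5 gave -0.041 for Rab37. FPKM as deposited gave -0.15 for Rab3a and -0.049 for Rab37, with a median over all genes of -0.09, and array weights gave -0.088 for Rab3a. Rab3b had an unadjusted p under 0.05 in 18 of 18 (log2 fold change -2.13 to -1.19, unadjusted p from limma 0.000359 to 0.0301, adjusted p 0.149 to 0.9996), and Rab26 in 0 of 17 (-0.59 to -0.07), with no value under a minimum of 1 FPKM. The 1 Rab gene at an unadjusted p under 0.05 became 3 without a minimum, 2 without a variance trend, 3 with array weights, and, in alternatives chosen after seeing the data, 3 with the neuron score as a covariate and 2 without both libraries numbered 5, while 5.33%, 5.41%, 11.5%, 8.63% and 6.22% of all genes passed. The 3 regulators became 5, 5, 7, 7 and 5 in that order, and 1 to 6 on leaving out 1 library, with 1 without Plekhg5-deficient nerve 2 and 6 without Plekhg5-deficient nerve 5, while 3.67% and 6.31% of all genes passed. Tbc1d4 had an unadjusted p under 0.05 in 14 of 18, Myo5b in 16 and Chml in 17. The median log2 fold change of the Rab genes ranged from -0.13 (without wild-type nerve 5) to 0.16 (without Plekhg5-deficient nerve 5) on leaving out 1 library. The log2 fold change of Plekhg5 no longer passed the adjusted p without a minimum (-2.26, adjusted p = 0.138), without both libraries numbered 5 (-2.18, adjusted p = 0.0790), or on leaving out any 1 library (-2.33 to -2.14, limma adjusted p 0.0763 to 0.268). The cause was not tested, except that these last have fewer libraries.

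The genotypes share the numbers 2 and 5, and the deviations of same-numbered libraries correlated at 0.073 for 2 and 0.580 for 5. The labels do not say what a number marks, and these 2 pairs do not settle whether it marks a shared source. With the replicate block over these pairs, 4 Rab genes had an unadjusted p under 0.05 (Rab3a, Rab3b, Rab6b and Rab37; 7.14% of members, against 5.50% of all genes) and Plekhg5 did not pass (-2.27, adjusted p = 0.319). The same fit also turned the log2 fold changes of Rab3a (-0.75), Rab37 (-0.82), Rab3c (-0.55), Rab15 (-0.39), Rab39 (-0.19) and Rab39b (-0.14). With no block and without Plekhg5-deficient nerve 3 alone, these were -0.76, -0.57, -0.67, -0.35, -0.21 and -0.28. The part of the pairing, apart from the libraries left out, was not tested.

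The depth of the libraries is unknown and limits Rab26 and the 5 other Rab genes below 1 FPKM. No formal outlier test was run within groups of 3 libraries.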
